A study of Homo sapiens with 6 samples.

Results

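The genes described here encode 10 adhesion proteins of epithelial cells: the cadherins CDH1 and CDH17, the catenins CTNNA1, CTNND1 and JUP, and the desmosome proteins DSP, DSG2, DSC2, PKP2 and PKP3. They were taken by symbol from a table of transcripts, where 99 of 116485 annotated transcripts and 10 of 29236 gene symbols belonged to them. The samples were xenografts of HT-29, an established human colorectal cancer cell line grown in a host animal that the labels do not name. The shock wave group (3 samples) received 60 mJ extracorporeal shock waves, pressure pulses applied from outside the body, and the control group (3 samples) received no treatment. All 6 samples carry the genotype label WT, belong to day 15 of the treatment and share 1 batch label. Whether the 3 samples of each group are 3 animals is not stated in the labels, and the p-values below therefore measure the spread between these samples alone, which may be technical.

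Epithelial cells are held together by adherens junctions and desmosomes. In an adherens junction, E-cadherin (CDH1) binds E-cadherin of the next cell, p120-catenin (CTNND1) holds its tail at the membrane, and alpha-catenin (CTNNA1) couples the complex to actin. In a desmosome, desmoglein-2 (DSG2) and desmocollin-2 (DSC2) bridge the cells, plakoglobin (JUP) and the plakophilins (PKP2, PKP3) bind their tails, and desmoplakin (DSP) ties the plaque to keratin filaments. CDH17, the liver-intestine cadherin, lies outside these junctions and is a marker of intestinal epithelium. Loss of E-cadherin is a hallmark of epithelial cells that become motile.

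Levels are given as FPKM, a number of reads scaled to transcript length and to the depth of the library, and a gene's level is the sum over its annotated transcripts. All 10 genes reached the minimum of 1 FPKM in at least 3 samples and were tested by limma on log2(FPKM + 1), among 13448 genes in all. Recovered totals were 55196500, 55232500 and 58538500 reads in the shock wave libraries and 52170000, 55488500 and 48297500 in the controls, and each of the 10 genes rested on 1683 reads or more in every library. In bulk tumour RNA, fewer cells of a type and less RNA per cell cannot be told apart.

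None of the 10 genes passed an adjusted p of 0.05. With limma, 0 of 13448 genes passed in either direction (percent called 0), and 932 had an unadjusted p under 0.05. Of the 10 genes, 4 had a positive and 6 a negative log2 difference, with a median of -0.021 against -0.014 over all genes tested. At an unadjusted p under 0.05 stood 1 of the 10 genes, PKP3, where the share over all genes was 6.93% (3.17% higher and 3.76% lower). In all 3 shock wave samples PKP3 lay above every control, where 7.75% of all genes did so. In all 3 shock wave samples CDH1 and DSP lay below every control, where 8.69% of all genes did so. Of all genes 16.4% did not overlap in either direction, and 3 of these 10 did not. Whether these shares differ was not tested. A p that misses the threshold does not show that a gene was equal in the groups.

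**Figure D1:**
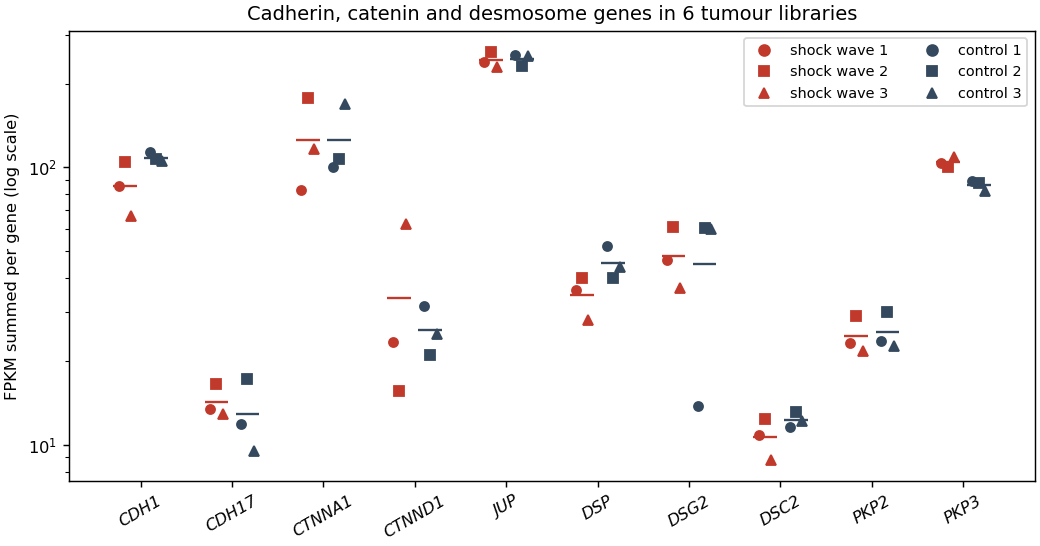
FPKM summed per gene on a log axis in the 3 shock wave (red) and 3 control (dark) libraries, with horizontal lines at the group means and a symbol for each replicate. PKP3 points of the shock wave group lie above all control points, CDH1 and DSP points lie below them, and DSG2 has 1 low control point at 13.7 FPKM.

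By level per transcript length, the genes fell into an order that was partly kept in every library. JUP was highest, with a median of 246 FPKM over the 6 libraries, and lay above the other 9 genes in each library. CTNNA1, CDH1 and PKP3 followed with medians of 112, 104.8 and 94.6 FPKM, and their ranges overlapped. PKP3 lay above DSG2 in 6 of 6 libraries without overlap, and DSG2 (53.1), DSP (39.8), CTNND1 (24.2) and PKP2 (23.4) formed a run in which each gene overlapped the next. PKP2 lay above CDH17 in all 6 libraries without overlap. CDH17 and DSC2 were lowest, at medians of 13.2 and 11.9 FPKM, with overlapping ranges.

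CDH1, on chromosome 16 at 68737225 to 68835548 (hg38, plus strand, ENSG00000039068), had lower values in the shock wave samples, by an amount that varied between them. It measured 85.9, 104.5 and 66.9 FPKM in shock wave samples 1 to 3 and 113, 106.8 and 105.1 FPKM in the controls. The 3 controls lay close together, shock wave replicate 2 was just under them, and shock wave replicate 3 was the lowest library. Group means were 85.7 ± 18.8 FPKM in shock wave samples and 108.3 ± 4.17 FPKM in controls (SD, n = 3 each), a log2 difference of -0.36 (SE 0.17, limma adjusted p = 0.648). Without shock wave replicate 3 the log2 difference of CDH1 was -0.19, and with a trend on transcript length fitted and removed in each library it was -0.18. A single protein-coding transcript of 882 codons, CDH1-201, carried 89.6 to 95.6% of the CDH1 level in each library. A short retained-intron transcript of 282 bases, CDH1-208, named here after its values were seen, measured 0.0642, 0.706 and 0.0606 FPKM in shock wave samples and 1.77, 1.60 and 1.25 FPKM in controls, without overlap (limma adjusted p = 0.523). These values rest on only 1, 11 and 1 reads in shock wave samples and 26, 25 and 17 reads in controls.

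CDH17, on chromosome 8 at 94127171 to 94208587 (minus strand, ENSG00000079112), measured 13.4, 16.6 and 12.9 FPKM in shock wave samples and 11.9, 17.3 and 9.52 FPKM in controls. The shock wave values all fell between the lowest and the highest control. The log2 difference was 0.17 (SE 0.23, limma adjusted p = 0.795), and without control replicate 3 it was -0.0147. Its transcript CDH17-201, with 832 codons, held at least 97.8% of the level in each library.

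CTNNA1, on chromosome 5 at 138753097 to 138935034 (plus strand, ENSG00000044115), had nearly equal group means and a make-up that differed from library to library. It measured 83.0, 177 and 116 FPKM in shock wave samples and 99.9, 107.4 and 169 FPKM in controls, where the groups overlapped widely. Means were 126 ± 47.7 FPKM in shock wave samples and 125 ± 37.7 FPKM in controls (SD, n = 3 each; log2 difference -0.0262, SE 0.32, limma adjusted p = 0.978). The full-length coding transcript CTNNA1-201, with 906 codons, held 87.6, 35.1 and 2.73% of the gene in shock wave samples and 94.0, 3.93 and 50.3% in controls. High and low shares of CTNNA1-201 were found in both groups, and other transcripts made up the rest to a different extent in each library.

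Among these, CTNNA1-230, annotated as a target of nonsense-mediated decay, held 73.2% of the gene in shock wave replicate 3 and 18.8% or less in the other 5 libraries. It lacks an internal exon of 196 bases that CTNNA1-201 contains, at chr5:138783177-138783372, and its reading frame stops after 37 codons. CTNNA1-244, with 841 codons, held 64.2% in control replicate 2 and 5.33% or less elsewhere. It carries an additional exon of 71 bases, at chr5:138932888-138932958. CTNNA1-236, a retained-intron transcript of 2044 bases, held 0.363, 37.5 and 11.4% in shock wave samples and 0.591, 8.28 and 32.8% in controls. It measured 66.5 FPKM in shock wave replicate 2 and 55.3 FPKM in control replicate 3, the libraries with the highest CTNNA1 sums. The level of CTNNA1 and its spread therefore rest in part on counting this transcript. With limma voom on the recovered reads the log2 difference of CTNNA1 was -0.20. Both exons are shown because they tell CTNNA1-230 and CTNNA1-244 apart from CTNNA1-201. Sequences are read 5′ to 3′ from GENCODE 29 (GRCh38, plus strand), with the exon in capitals and 15 bases of the neighbouring exons in lower case.
CTNNA1 196-base exon: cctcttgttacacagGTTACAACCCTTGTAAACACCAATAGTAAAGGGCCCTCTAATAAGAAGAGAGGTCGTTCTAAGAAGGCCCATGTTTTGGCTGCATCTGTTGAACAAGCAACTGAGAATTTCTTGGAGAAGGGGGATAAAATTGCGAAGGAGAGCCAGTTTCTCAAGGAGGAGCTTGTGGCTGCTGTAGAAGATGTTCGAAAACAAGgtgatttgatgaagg
CTNNA1 71-base exon: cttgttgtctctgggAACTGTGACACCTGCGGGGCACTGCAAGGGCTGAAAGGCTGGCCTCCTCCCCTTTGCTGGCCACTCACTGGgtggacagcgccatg

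Over the transcripts that contain or skip it, the 196-base exon was present in 98.3, 71.9 and 15.2% of the CTNNA1 level in shock wave samples and 98.3, 79.0 and 79.9% in controls. The 71-base exon was present in 0.450, 5.61 and 9.66% in shock wave samples and 0.109, 67.6 and 0.0699% in controls. Neither length is a multiple of 3, so each exon shifts the reading frame. Exact two-sided permutation tests of these shares gave p = 0.5 and p = 1, where 0.1 is the smallest p that 3 against 3 allows. In reads, CTNNA1 held 15553, 27103 and 18464 in shock wave samples and 18842, 20094 and 23961 in controls. How reads that fit several transcripts were counted is not stated, and its part in these shares was not tested.

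**Figure D2:**
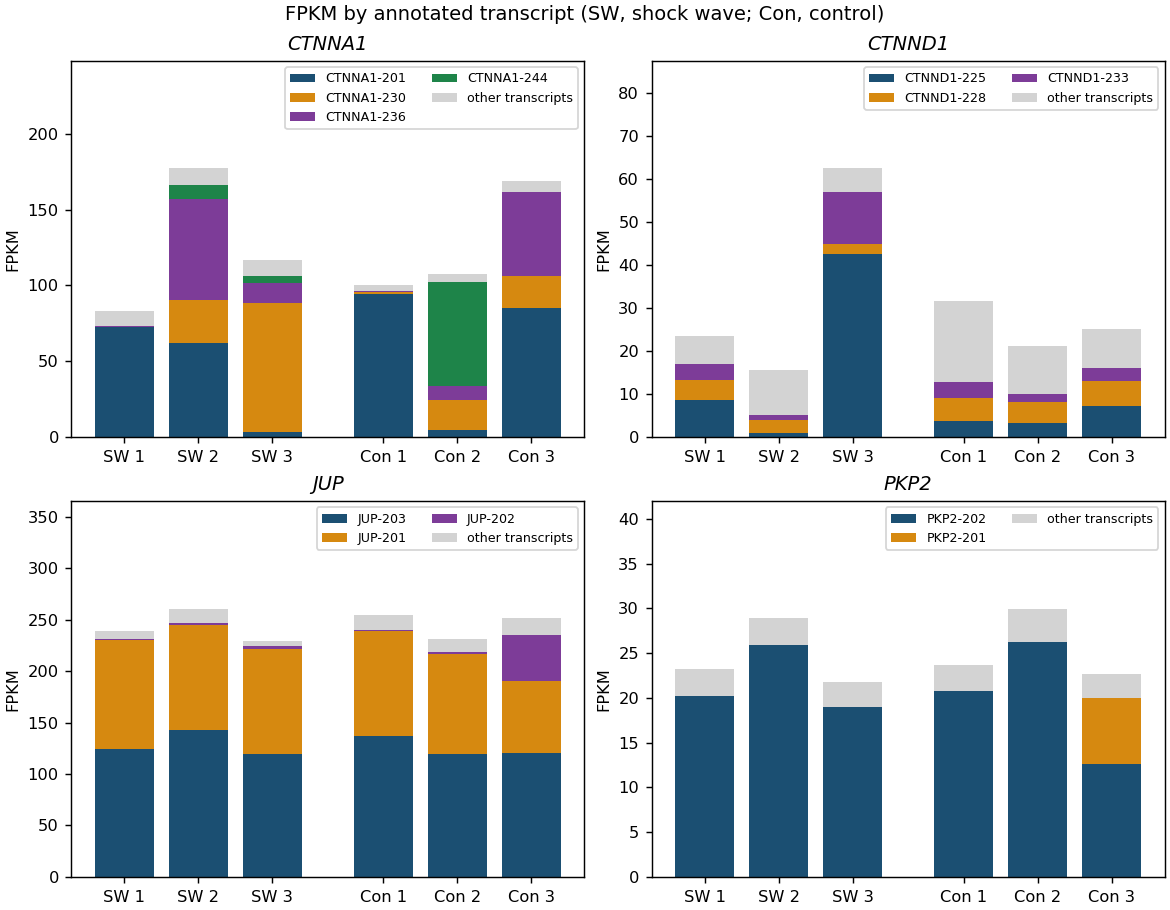
FPKM of the transcripts of CTNNA1, CTNND1, JUP and PKP2 as stacked bars for the shock wave (SW) and control (Con) libraries, with unnamed transcripts of each gene in grey. CTNNA1-201 nearly disappears in shock wave 3 and control 2, CTNND1-225 reaches 42.4 FPKM in shock wave 3, and JUP-202 and PKP2-201 appear in control 3.

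CTNND1, on chromosome 11 at 57753243 to 57819546 (plus strand, ENSG00000198561), was high in shock wave replicate 3 alone. It measured 23.4, 15.7 and 62.4 FPKM in shock wave samples and 31.7, 21.1 and 25.0 FPKM in controls. Shock wave replicate 2 was the lowest and replicate 3 the highest of the 6, with the controls between. The log2 difference was 0.15 (SE 0.47, limma adjusted p = 0.913), and it was -0.40 without shock wave replicate 3. In that library 20126 reads lay on CTNND1, against 3647 to 7238 in the others.

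The excess of CTNND1 in shock wave replicate 3 lay in 2 long coding transcripts. CTNND1-225, with 861 codons, measured 8.57, 0.981 and 42.4 FPKM in shock wave samples and 3.71, 3.14 and 7.16 FPKM in controls. CTNND1-233, with 840 codons, measured 3.75, 1.06 and 12.0 FPKM in shock wave samples and 3.60, 1.90 and 3.02 FPKM in controls. CTNND1-228, a coding fragment of 848 bases, did not take part and measured 4.74, 2.99 and 2.48 FPKM in shock wave samples and 5.40, 4.89 and 5.81 FPKM in controls (limma adjusted p = 0.76). CTNND1-225 and CTNND1-233 share an alternative exon of 87 bases near the end of the coding sequence, at chr11:57815915-57816001, and differ by one of 63 bases, at chr11:57814311-57814373, that only CTNND1-225 contains. Both exons keep the reading frame. They are shown, on the plus strand and marked as above, because both transcripts contain the 87-base exon and the 63-base exon tells them apart.
CTNND1 87-base exon: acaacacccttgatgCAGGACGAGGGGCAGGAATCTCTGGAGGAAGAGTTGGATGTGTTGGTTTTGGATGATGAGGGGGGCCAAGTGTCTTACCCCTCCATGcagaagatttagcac
CTNND1 63-base exon: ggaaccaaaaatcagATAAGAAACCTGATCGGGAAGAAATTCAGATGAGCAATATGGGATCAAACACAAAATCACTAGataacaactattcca

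The 87-base exon, chosen after its values were seen, was present in 75.9, 37.8 and 92.4% of the spanning CTNND1 level in shock wave samples and 50.9, 59.4 and 60.8% in controls. The 3 controls were close to each other, and the shock wave samples lay on both sides of them. The 63-base exon was present in 82.1, 85.3 and 80.1% in shock wave samples and 81.8, 85.1 and 86.6% in controls, a narrow range in which the groups overlapped (exact two-sided permutation p = 0.5).

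CTNND1 transcripts also differ in where translation starts. Forms of p120-catenin from the most upstream start codon are typical of motile mesenchymal cells, and forms from a later start codon are typical of epithelial cells. The 8 transcripts with the annotated start at base 57795613, a later codon, summed to 15.2, 6.60 and 57.8 FPKM in shock wave samples and 14.0, 8.36 and 15.2 FPKM in controls. The 8 transcripts that start at base 57791479, the most upstream codon, summed to 1.06, 0.981 and 1.16 FPKM in shock wave samples and 3.41, 2.06 and 1.72 FPKM in controls. These forms were low in all 6 libraries, and for this start codon the shock wave values lay below every control. The 3 transcripts that start at base 57791641, also upstream of the common one, summed to 0.0939, 2.01 and 0 FPKM in shock wave samples and 0.114, 0.0934 and 0.075 FPKM in controls, so shock wave replicate 2 lay above the controls there. The 5 transcripts that start at base 57801746, further downstream, summed to 0, 1.77 and 0 FPKM in shock wave samples and 6.24, 3.69 and 0 FPKM in controls. CTNND1-208, with 933 codons, is one of the 8 transcripts that start at base 57791479, the most upstream codon. It measured 0.837, 0.298 and 0.826 FPKM in shock wave samples and 3.12, 1.56 and 1.46 FPKM in controls (log2 difference -0.86, SE 0.30, limma adjusted p = 0.735). CTNND1-208 and this grouping were chosen after the values were seen.

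JUP, on chromosome 17 at 41754604 to 41786931 (minus strand, ENSG00000173801), was the steadiest of the 10 genes. It measured 239, 261 and 229.6 FPKM in shock wave samples and 254, 231 and 252 FPKM in controls, a ratio of 1.14 between the highest and the lowest library. The log2 difference was -0.015 (SE 0.12, limma adjusted p = 0.969). JUP-203 and JUP-201, which encode the same 745 codons, measured 119 FPKM or more and 69.4 FPKM or more in each library. JUP-202, which encodes these codons too and has a first exon of its own, measured 1.18, 1.43 and 2.46 FPKM in shock wave samples and 1.24, 1.17 and 45.3 FPKM in controls. In control replicate 3, where JUP-202 was high, JUP-201 was at its lowest.

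DSG2 and DSC2, the desmosomal cadherins, lie near each other on chromosome 18, at 31498043 to 31549008 (plus strand, ENSG00000046604) and 31058840 to 31102415 (minus strand, ENSG00000134755). DSG2 measured 46.3, 60.8 and 36.8 FPKM in shock wave samples and 13.7, 60.2 and 60.0 FPKM in controls. Control replicate 1 stood apart at 3785 reads, where the other 5 libraries had 11936 to 18338. The log2 difference of DSG2 was 0.34 (SE 0.56, limma adjusted p = 0.828), and without control replicate 1 it was -0.35. Its coding transcript DSG2-201, with 1118 codons, held 88.4 to 97.6% of the level in each library, the low one included. DSC2 was not low in that library. It measured 10.8, 12.4 and 8.78 FPKM in shock wave samples and 11.6, 13.2 and 12.2 FPKM in controls, with shock wave replicate 2 inside the control range (log2 difference -0.20, SE 0.17, limma adjusted p = 0.686). With the length trend removed the log2 difference of DSC2 was 0.12, and without shock wave replicate 3 it was -0.0763.

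DSC2 is made in a long and a short form that differ in the tail inside the cell. An exon of 46 bases, at chr18:31068299-31068344, is skipped in DSC2-202 (901 codons) and included in DSC2-201 (847 codons), where its stop codon ends the protein early. It is shown on the minus strand because it tells the 2 forms apart.
DSC2 46-base exon: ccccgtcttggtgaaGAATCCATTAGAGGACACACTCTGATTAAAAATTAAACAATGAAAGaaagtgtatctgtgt

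The form with the exon made up 31.7, 28.3 and 20.2% of the DSC2 level in shock wave samples and 20.1, 38.2 and 31.9% in controls. The shock wave values all lay within the range of the controls, with means of 26.7 ± 5.87% in shock wave samples and 30.1 ± 9.18% in controls (SD, n = 3 each), and the exact permutation test gave a two-sided p = 0.6. The long form was therefore the more abundant in each library of both groups.

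DSP, on chromosome 6 at 7541575 to 7586717 (plus strand, ENSG00000096696), had lower values in the shock wave samples by a narrow margin. It measured 36.1, 39.80 and 28.1 FPKM in shock wave samples and 52.0, 39.81 and 43.7 FPKM in controls. The groups did not overlap, but the highest shock wave and the lowest control library were almost level. Means were 34.7 ± 5.97 FPKM in shock wave samples and 45.2 ± 6.22 FPKM in controls (SD, n = 3 each), a log2 difference of -0.38 (SE 0.17, limma adjusted p = 0.648). With the length trend removed it was -0.0785, and without shock wave replicate 3 it was -0.24. Desmoplakin has a long and a short form, which differ in the length of the rod between its ends. The long form, DSP-201 with 2871 codons, made up 74.9, 78.1 and 64.1% of both forms in shock wave samples and 70.2, 80.4 and 70.1% in controls (exact two-sided permutation p = 0.9). The short form, DSP-202 with 2272 codons, lacks 1797 bases of exon at 7579773 to 7581569.

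PKP3, on chromosome 11 at 393449 to 404908 (plus strand, ENSG00000184363), was the one gene of the 10 with higher values in every shock wave sample. It measured 103.3, 100.2 and 109 FPKM in shock wave samples and 88.9, 87.9 and 82.3 FPKM in controls. The range within each group was narrower than the gap between the highest control, 88.9 FPKM, and the lowest shock wave value, 100.2 FPKM, but not by much. Means were 104.2 ± 4.41 FPKM in shock wave samples and 86.4 ± 3.54 FPKM in controls (SD, n = 3 each), a log2 difference of 0.27 (SE 0.11, limma adjusted p = 0.648). It was 0.14 with quantile normalization and 0.15 with each library scaled to the same summed FPKM. The main transcript PKP3-201, with 797 codons, measured 90.8, 90.7 and 100.2 FPKM in shock wave samples and 77.5, 75.2 and 70.3 FPKM in controls (log2 difference 0.33, SE 0.13, adjusted p = 0.752 by limma over 28517 transcripts). Retained-intron transcripts made up 8.41, 8.40 and 5.01% of PKP3 in shock wave samples and 10.2, 11.1 and 12.4% in controls. For CDH1 this share also lay lower in shock wave samples without overlap. The groups overlapped in it for CTNNA1, CTNND1, JUP, DSP and PKP2. It was not tested, and how many of all genes separate in this way is not given here.

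PKP2, on chromosome 12 at 32790745 to 32896840 (minus strand, ENSG00000057294), measured 23.2, 28.99 and 21.8 FPKM in shock wave samples and 23.7, 29.99 and 22.7 FPKM in controls. Both groups had 1 higher and 2 lower libraries, and the log2 difference was -0.0425 (SE 0.17, limma adjusted p = 0.935). The form without an optional exon, PKP2-202 with 837 codons, measured 20.2, 25.9 and 18.9 FPKM in shock wave samples and 20.7, 26.3 and 12.6 FPKM in controls. PKP2-201, with 881 codons, contains that exon. It measured 7.45 FPKM in control replicate 3 and 0.0299 FPKM or less in the other 5 libraries, so it was not tested.

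**Figure D3:**
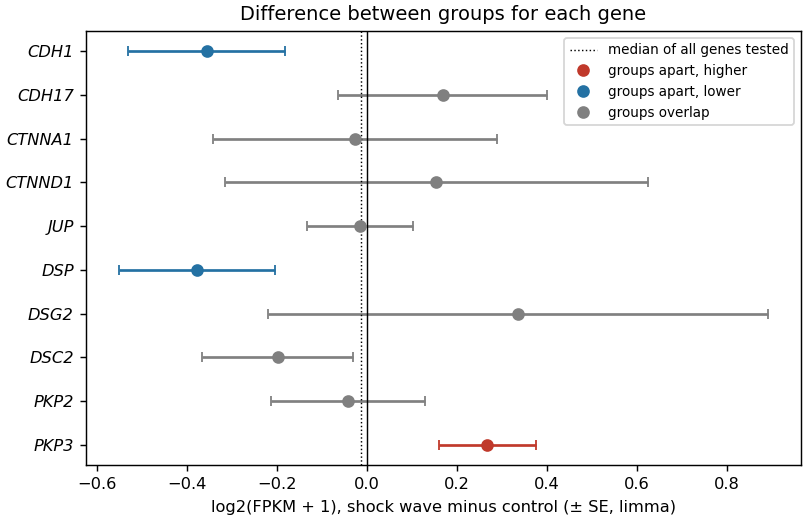
Log2(FPKM + 1) difference of each gene, shock wave minus control, with its SE from limma, coloured by whether the groups overlapped. PKP3 stands at 0.27, CDH1 at -0.36 and DSP at -0.38, while DSG2 and CTNND1 have the widest errors.

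At the level of transcripts, 36 of the 99 listed for these genes passed the filter on low values and 0 passed an adjusted p of 0.05. Over all 28517 transcripts tested 58 passed, which is 0.203% (0.0771% higher and 0.126% lower). Of the 36, 5 had an unadjusted limma p under 0.05, with 2 higher and 3 lower, where 6.58% of all transcripts did so, 3.05% higher and 3.53% lower. The 5 were PKP3-201, CDH1-208, CTNND1-208, CTNNA1-223 and JUP-208, which apart from PKP3-201 were named after their values were seen. CTNNA1-223, a coding fragment of 484 bases, measured 1.27, 1.91 and 1.27 FPKM in shock wave samples and 0.475, 0.633 and 0.556 FPKM in controls. It rested on only 34, 51 and 36 reads in shock wave samples and 12, 17 and 13 reads in controls. JUP-208, of 1069 bases, measured 1.73, 2.91 and 1.07 FPKM in shock wave samples and 4.84, 3.22 and 3.99 FPKM in controls. Without overlap between groups, 2 of the 36 lay higher and 6 lower in shock wave samples, where 14.2% of all transcripts did so, 6.87% higher and 7.34% lower.

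Shock wave replicate 3 held the lowest value of 5 of the 10 genes (CDH1, JUP, DSP, DSC2 and PKP2) and the highest of 2 (CTNND1 and PKP3). Transcript length went with some of these values and not with others. JUP and PKP2, at mean transcript lengths of 3243 and 3929 bases, were lowest in this library and are shorter than CTNND1, at 4656. For all tested genes, the log2 level relative to the gene's mean over the 6 libraries was fitted on transcript length. In this library it fell by 0.18 per doubling of length. Shock wave replicate 1 had a slope of -0.0499, replicate 2 of 0.0366 and the controls of 0.0547 to 0.0684. Because the mean includes all 6 libraries, a slope in 1 library also moves those of the others. The mean transcript length was 9241 bases for DSP and 10156 for DSC2, the longest, and 2545 for PKP3, the shortest. Relative to the control mean, log2 levels in shock wave replicate 3 were -0.66 for DSP, -0.44 for DSC2 and 0.33 for PKP3. CDH1, at 4775 bases, stood at -0.69 and CTNND1, at 4656 bases, at 1.26, so genes of like length lay at the opposite ends. The part of length in the differences was not tested beyond the values with the length trend removed. PKP3 then stood at 0.33, CDH1 at -0.18 and DSP at -0.0785.

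**Figure D4:**
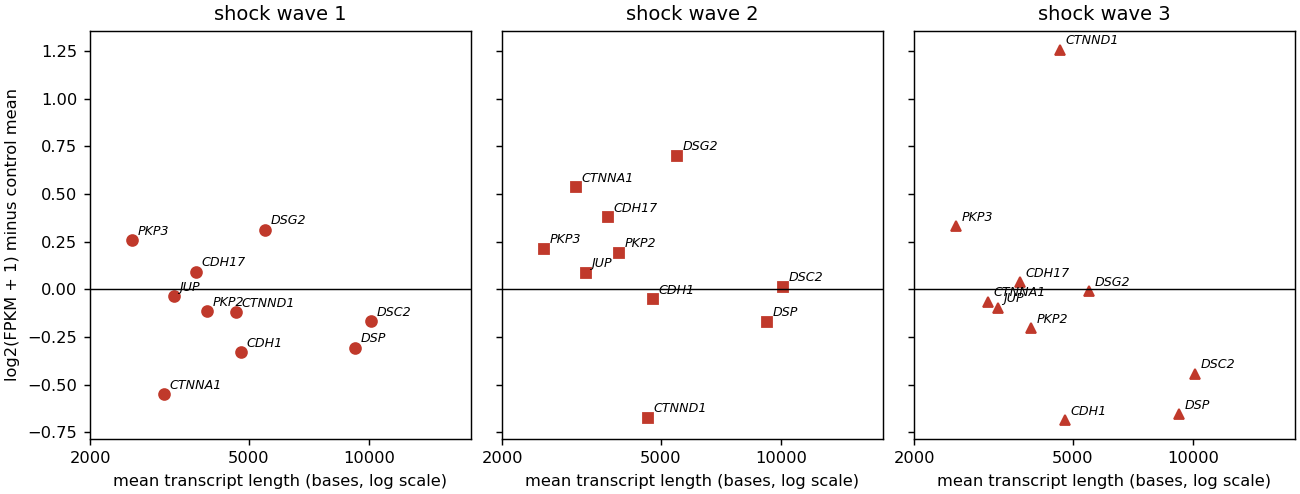
Log2(FPKM + 1) of each gene minus its control mean, against its mean transcript length on a log axis, for the 3 shock wave libraries. In shock wave 3 the short PKP3 lies above 0 and the long DSP and DSC2 below, while CTNND1 at 1.26 and CDH1 at -0.69 have nearly the same length.

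The profiles of CDH1 and DSP across the 6 libraries were alike, with a Pearson r of 0.93, and so were those of CDH1 and DSC2, with an r of 0.92. These are descriptions over 6 libraries that share the group and the length trend. CTNND1 and DSC2 ran opposite, with an r of -0.88. Shock wave replicate 3 held the highest value of CTNND1 and the lowest of CDH1, DSP and DSC2. How far these r values rest on that library was not tested. With the mean log2 level of the 10 genes, SEC62 (0.99) and SNX2 (0.98) had the highest r of 6381 genes of at least 10 FPKM, where the 99th percentile was 0.84.

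Further genes of cell junctions were read from lists chosen with earlier results of these data known. Of the list of adherens junction partners, 18 of 21 genes were tested and 0 passed in each direction, with 3 positive and 15 negative differences and a median of -0.24 (all genes -0.014). The share of negative differences over all genes is not given here. How far the differences of this list and of those below rest on shock wave replicate 3 or on transcript length was not tested. Without overlap, 1 of the 18 lay higher and 3 lower in shock wave samples, where 7.75% and 8.69% of all genes did so. The smallest p belonged to PLEKHA7 and AFDN. PLEKHA7, which binds p120-catenin at the adherens junction, measured 13.2, 13.9 and 9.85 FPKM in shock wave samples and 20.3, 20.3 and 18.9 FPKM in controls, without overlap (log2 difference -0.66, SE 0.16, limma adjusted p = 0.648). AFDN, which links nectins to actin, measured 20.6, 19.8 and 7.82 FPKM in shock wave samples and 26.1, 25.7 and 34.2 FPKM in controls, without overlap (adjusted p = 0.648).

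Of the remaining desmosome genes, 4 of 11 were tested, and 0 passed in each direction, with 4 negative differences and a median of -0.31. Without overlap, 1 of the 4 lay lower in shock wave samples, where 8.69% of all genes did so. PKP4, a relative of p120-catenin and the plakophilins, measured 26.3, 25.0 and 19.6 FPKM in shock wave samples and 31.1, 29.9 and 33.1 FPKM in controls, without overlap (log2 difference -0.40, SE 0.15, limma adjusted p = 0.648). PPL, the plakin periplakin, measured 22.4, 32.5 and 8.18 FPKM in shock wave samples and 32.5, 27.2 and 31.4 FPKM in controls, with overlap. PERP, the most abundant of the 4 and named after its values were seen, was nearly level. It measured 105, 133 and 127 FPKM in shock wave samples and 117, 122 and 126 FPKM in controls (log2 difference -0.00589). The skin desmosome genes DSG1, DSG3, DSC1 and DSC3 did not exceed 0.315 FPKM. Simple-epithelium keratins, the filaments that desmoplakin anchors, were all 6 tested with 0 past the threshold in each direction, 5 positive and 1 negative, and a median of 0.12. KRT19 measured 1398, 1427 and 2089 FPKM in shock wave samples and 1392, 1129 and 1357 FPKM in controls, a narrow gap apart from replicate 3. KRT23 measured 14.9, 21.0 and 7.32 FPKM in shock wave samples and 10.8, 6.33 and 12.1 FPKM in controls.

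Regulators of cadherin genes and proteins gave no call either. Of 8 repressors of cadherin genes, 3 were tested, and 0 passed in each direction, with 3 negative differences and a median of -0.30. ZEB2 measured 1.32, 1.93 and 0.709 FPKM in shock wave samples and 3.30, 1.76 and 3.96 FPKM in controls (limma adjusted p = 0.648), and ZEB1, which was not tested, stayed at or under 0.309 FPKM. TCF3 measured 37.3, 34.5 and 26.9 FPKM in shock wave samples and 44.7, 36.3 and 40.2 FPKM in controls. Of 13 epithelial transcription factors, all were tested and 0 passed in each direction, with 5 positive, 8 negative and a median of -0.074. Without overlap, 0 of the 13 lay higher and 2 lower in shock wave samples, where 7.75% and 8.69% of all genes did so. GRHL2, a factor that maintains epithelial junction genes, measured 5.40, 8.34 and 2.41 FPKM in shock wave samples and 9.43, 14.0 and 13.2 FPKM in controls, without overlap (log2 difference -1.15, SE 0.37, adjusted p = 0.648). HNF4A, an intestinal and hepatic factor, measured 23.9, 24.6 and 6.97 FPKM in shock wave samples and 30.8, 46.6 and 27.1 FPKM in controls, also without overlap.

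Of 12 genes of cadherin cleavage and traffic, all were tested and 0 passed in each direction, with 7 positive, 5 negative and a median of 0.0642. Without overlap, 0 of the 12 lay higher and 2 lower in shock wave samples, where 7.75% and 8.69% of all genes did so. NUMB, an endocytic adaptor, measured 4.54, 4.46 and 3.94 FPKM in shock wave samples and 7.20, 10.7 and 6.19 FPKM in controls, without overlap (log2 difference -0.73, SE 0.22, limma adjusted p = 0.648). MMP7, a secreted protease, measured 398, 485 and 376 FPKM in shock wave samples and 316, 189 and 390.2 FPKM in controls. ADAM10, the protease that sheds E-cadherin, measured 14.3, 14.7 and 13.2 FPKM in shock wave samples and 15.6, 15.2 and 17.6 FPKM in controls. ADAM10 was named after its values were seen.

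Markers were read from the human symbols of the table. Stromal, vascular and immune cells of a xenograft come largely from the host, and whether host reads were removed or matched to human symbols is not stated, so low values below say nothing about how many host cells there were. All 8 markers of colonic epithelium were tested and abundant or present, with EPCAM at 427, 409 and 599.9 FPKM in shock wave samples and 389, 398 and 361 FPKM in controls. TFF3, a goblet cell peptide, measured 138, 92.0 and 178 FPKM in shock wave samples and 107.8, 79.8 and 65.9 FPKM in controls. None of these 8 passed, and 6 were positive with a median of 0.12. The 2 negative ones were CEACAM5 and VIL1, with log2 differences of -0.37 and -0.0455. CEACAM5 measured 45.5, 48.6 and 70.4 FPKM in shock wave samples and 66.8, 117 and 43.6 FPKM in controls. CDX2 was low, at 1.89 to 6.89 FPKM over the 6 libraries. The 7 matched of 9 fibroblast markers summed to 4.83 to 16.0 FPKM in shock wave samples and 11.2 to 26.6 FPKM in controls, with COL3A1 at or under 0.013 FPKM and DCN at or under 0.0334 FPKM. COL1A1, the most abundant of them on average, measured 1.32, 9.25 and 3.45 FPKM in shock wave samples and 23.0, 5.78 and 8.24 FPKM in controls. LUM measured 1.76, 3.63 and 2.27 FPKM in shock wave samples and 1.95, 2.23 and 1.99 FPKM in controls, with overlap as for COL1A1. The 6 matched of 7 endothelial markers summed to 8.27 to 14.0 FPKM in shock wave samples and 11.1 to 12.2 FPKM in controls, nearly all from ENG, while CDH5 stayed at or under 0.121 FPKM. The 5 matched of 7 leukocyte markers summed to 11.1 to 13.3 FPKM in shock wave samples and 13.1 to 18.9 FPKM in controls, with PTPRC, found on all leukocytes, at or under 0.102 FPKM. CD68 measured 8.93, 8.44 and 10.5 FPKM in shock wave samples and 12.8, 9.33 and 15.9 FPKM in controls, and CD14 1.27 to 3.03 FPKM over the 6 libraries. The 6 matched of 8 skin keratinocyte markers summed to 19.2 to 20.5 FPKM in shock wave samples and 13.9 to 19.0 FPKM in controls, nearly all from KRT10. The part of host or other cells in the differences was not tested.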

How the data were processed

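RNA of 6 HT-29 xenograft samples was sequenced from SMARTER libraries, per the labels' protocols. The submitters' processing notes name the build hg38. The sources used here name no aligner, assembler or counting program and do not say whether host reads were removed. The authors deposited FPKM values of 131516 transcripts, scaled to transcript length and library depth, 1 per sample. The table does not name this unit, which was taken as FPKM because value times GENCODE 29 length gave whole reads (within 0.05) for 99.64 to 99.70% of values worth 0.5 to 100 reads. The recovered totals come from this step, and intervals of counting error were not computed. The 15031 transcripts without a gene name were left out. They held 9.75 to 11.4% of summed FPKM.

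Groups follow the treatment labels. Titles give the replicate numbers, but those of the shock wave samples also contain the letters con, so titles were not used to assign groups. FPKM was summed per symbol, and genes or transcripts with at least 1 FPKM in at least 3 samples were tested with limma 3.58.1 (R 4.3.3, mean-variance trend, no covariate) on log2(FPKM + 1), which understates changes of low values, with Benjamini-Hochberg adjustment over all 13448 genes or 28517 transcripts. Single shares were compared with exact two-sided permutation tests over 20 arrangements (SciPy 1.17.1). Named transcripts have a mean of at least 1 FPKM and at least 10% of their gene in a sample. An exon share is the FPKM of transcripts that contain the exon over that of all that contain or skip it. Transcripts that overlap the exon with other bounds were left out. Of each list of other genes the 2 with the smallest p are named. The genes, lists and tests were chosen with earlier results of these data known. Alternatives were limma without the trend, quantile, upper-quartile and equal-sum scaling, no filter, 5 FPKM, a pseudocount of 0.1, a replicate block, each library left out, removal of a length trend, and limma voom on the recovered reads. No other gene of the table overlapping the 10, antisense genes included, exceeded 3.21 FPKM, and strand is not given. An exon sequence and a gene that these rules would name are not reported here.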

Additional observations from a re-analysis of the deposited data

How the results depend on the processing

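With 3 libraries per group, no alternative gave an adjusted p under 0.05 to any of the 10 genes or their 20 tested named transcripts, where the lowest adjusted p was 0.320. Over all genes, 0 passed with all 6 libraries, 2 with limma voom and 0 to 5 with a library left out (5 without shock wave replicate 2, 1 without shock wave replicate 3). Over transcripts 58 passed, 5 with no filter on low values, 18 with the filter of 5 FPKM, 32 with the pseudocount of 0.1, 0 with limma voom and 1 to 31 with a library left out (15, 15 and 31 without shock wave replicate 1, 2 or 3, and 1, 6 and 3 without control replicate 1, 2 or 3). Correlations of deviations were -0.012, -0.00579 and 0.0282 for the same replicate number, and not every library was closest to its own number. With 3 libraries per group these values cannot show whether the replicate numbers pair the samples. With the replicate block 0 transcripts and 0 genes passed. Scaling to equal sums moved the median of all genes to -0.11.

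Over the settings, the log2 difference of a gene kept its direction 146 times and reversed 14 times, and that of a transcript kept it 287 times and reversed 27 times. With the length trend removed, log2 differences reversed to 0.0697 for CTNNA1, 0.0913 for JUP, 0.12 for DSC2, 0.0989 for PKP2, 0.0561 for CTNNA1-244 and 0.084 for DSC2-202. With the pseudocount of 0.1, CTNNA1-230 stood at -0.55 and CTNNA1-244 at 0.90. With limma voom, CTNNA1-230 stood at -2.12, CTNNA1-236 at -0.0126 and CTNNA1-244 at 1.29. JUP-203 stood at -0.17 with quantile normalization and -0.0818 with equal sums. The cause was not tested. With each library left out in turn, the ranges that crossed 0 were -0.0147 to 0.39 for CDH17, -0.31 to 0.24 for CTNNA1, -0.40 to 0.57 for CTNND1, -0.0659 to 0.0254 for JUP, -0.35 to 0.68 for DSG2 and -0.16 to 0.0771 for PKP2. For transcripts they were -0.0175 to 0.40 for CDH17-201, -1.75 to 0.97 for CTNNA1-201, -0.99 to 2.23 for CTNNA1-230, -1.16 to 1.69 for CTNNA1-236, -1.05 to 1.95 for CTNNA1-244, -0.32 to 1.91 for CTNND1-225, -0.27 to 1.06 for CTNND1-233, -0.0426 to 0.0947 for JUP-203, -1.95 to 0.26 for JUP-202, -0.36 to 0.73 for DSG2-201 and -0.11 to 0.39 for PKP2-202. CDH1, DSP, DSC2 and PKP3 kept their direction with any library left out, at -0.51 to -0.19, -0.48 to -0.24, -0.30 to -0.0763 and 0.23 to 0.29.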

Other observations

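Among the other cadherins, 8 of 16 listed genes were tested and 0 passed in each direction, with 4 positive, 4 negative and a median of -0.0426. FAT1, a giant atypical cadherin, measured 3.02, 6.09 and 49.2 FPKM in shock wave samples and 6.55, 4.70 and 5.06 FPKM in controls, so that it was high in the same library as CTNND1 (limma adjusted p = 0.73). CELSR1, a cadherin of planar cell polarity, measured 1.92, 1.61 and 0.525 FPKM in shock wave samples and 2.15, 1.16 and 1.91 FPKM in controls. PCDH1, a protocadherin named after its values were seen, measured 9.02, 6.34 and 29.7 FPKM in shock wave samples and 7.39, 6.88 and 33.0 FPKM in controls, high in replicate 3 of both groups. CDH3, which encodes P-cadherin and was also named afterwards, measured 12.99, 6.75 and 14.1 FPKM in shock wave samples and 7.72, 18.5 and 5.40 FPKM in controls, with overlap.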
